A study of Mus musculus with 6 samples.

Results

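Connexin and pannexin genes were followed in RNA of astrocytes isolated from the mouse hippocampus after ablation of microglia. The 8 genes described are the connexins *Gja1*, *Gjb6*, *Gjb2*, *Gjc1*, *Gja4* and *Gja5* and the pannexins *Panx1* and *Panx2*. They were chosen by name, and each was found as 1 row among the 24421 genes of the deposited tables. The other 15 genes of these families that were looked up were also in the tables, and 3 of them were read often enough to be tested.

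The libraries came from Siglechdtr/dtr mice on the C57BL/6 strain, which carry the receptor for diphtheria toxin (DT) in the 3′ end of *Siglech*, outside its coding part. In the brain, *Siglech* is expressed mainly by microglia. Mice received PBS or DT at 50 μg/kg, and astrocytes were collected 2 days later. The PBS and DT groups each had 3 libraries, and each library was made from the pooled hippocampi of 2 mice. All mice carried the receptor on both alleles, so the toxin was the difference between the groups, and homozygotes are stated by the study to make less Siglec-H. Myelin debris and cells bound by anti-CD11b beads were removed first, and astrocytes were then captured with beads against the astrocyte antigen ACSA-2. The mice were adult males, per the study's methods.

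Connexins assemble into hexameric hemichannels in the plasma membrane, and hemichannels of neighboring cells dock into gap junctions that pass ions and small metabolites. Astrocytes are coupled into networks in this way, mainly through Cx43, the product of *Gja1*, and Cx30, the product of *Gjb6*. Through these networks they spread potassium, glucose metabolites and calcium waves. Pannexins form single-membrane channels that release ATP and do not usually dock with a partner cell.

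Recovered reads per library ranged from 21704891 to 32933975. The deposited CPM (read counts relative to library size) were scaled to library sizes adjusted with TMM factors (trimmed mean of M-values) between 0.974 and 1.02. Of the 10 astrocyte markers looked up, all were read, and *Slc1a2*, the main glutamate transporter of astrocytes, was at 36929 ± 1129 CPM (SD, n = 3) after PBS. *Gfap*, an intermediate filament gene, passed the threshold as higher after DT with a log2 fold change of 1.93, and 0 of the other 9 astrocyte markers passed it. Of the 10 microglia markers, 6 passed it as lower after DT, and their summed level was 174 to 216 TPM (a level per transcript length) after PBS and 94.0 to 110 TPM after DT. *Siglech* was at 0.967, 2.14 and 1.93 CPM after PBS and had 0 reads in each DT library. In such bulk samples, fewer cells of a type and less RNA per cell cannot be told apart.

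The genes lie apart in the genome with a few exceptions. In GENCODE M21 on mm10, *Gja1* lies on the plus strand at chr10:56377330-56402513. *Gjb2* (chr14:57098600-57104702) and *Gjb6* (chr14:57123303-57133611) are neighbors on the minus strand with 18600 bases between them. *Gjc1* lies at chr11:102799579-102819700, *Gja4* at chr4:127311421-127314039 and *Panx1* at chr9:15002128-15045478, all on the minus strand, while *Gja5* lies at chr3:96904693-97077416 and *Panx2* at chr15:89059734-89073567 on the plus strand. In the transcript with the longest coding sequence, the protein of *Gja1*, *Gjb6*, *Gjb2*, *Gjc1* and *Gja4* is encoded in 1 exon. That of *Panx1* is encoded in 5 exons and that of *Panx2* in 3.

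Because connexins resemble each other, the starts of 4 coding sequences are shown, since they bear on whether reads can be told apart. They are the first 30 coding bases, 5′ to 3′, from the GENCODE M21 transcripts, each within 1 coding exon. Capitals mark bases of *Gja6* that differ from *Gja1* and bases of *Gjb2* that differ from its neighbor *Gjb6*.
Gja1: atgggtgactggagcgccttggggaagctg
Gja6: atgAgtgaTtggagTgccttACACCagctC
Gjb6: atggactgggggaccctgcacaccgtcatc
Gjb2: atggaTtggggCacActCcaGaGcAtcCtc
These stretches lie at chr10:56387547-56387576 on the plus strand (*Gja1*), and on the minus strand at chrX:160903905-160903934 (*Gja6*), chr14:57124773-57124802 (*Gjb6*) and chr14:57100720-57100749 (*Gjb2*). *Gja6* differed from *Gja1* at 9 of the 30 bases and *Gjb2* from *Gjb6* at 8. Over whole transcripts, no stretch of 50 bases was shared between another gene and *Gjb6*, *Gjb2*, *Gja4*, *Panx1* or *Panx2*. For *Gja1* 10 of 10445 stretches and for *Gjc1* 2 of 5046 were shared. *Gja5* shared 13.2% of its stretches with *Zfp697*, so its reads are uncertain to that extent. The authors mapped with strand information.

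To set the genes beside each other, levels were taken per transcript length in TPM. *Gja1* was the highest, at 2028 TPM after PBS and 1869 TPM after DT. *Gjb6* followed at 366 and 347 TPM. *Gja1* was thus 5.33 to 5.78 times as high as *Gjb6* in the PBS libraries and 5.18 to 5.62 times in the DT libraries, and these ranges overlapped. *Gjb2*, which encodes Cx26, was the third at 33.7 and 37.1 TPM. In both groups, every library of *Gja1* was above every library of *Gjb6*, and every library of *Gjb6* above every library of *Gjb2*.

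The next levels were those of *Gjc1* at 24.6 TPM after PBS and 16.2 TPM after DT, *Panx2* at 9.42 and 9.74 TPM, and *Gja4* at 8.63 and 9.30 TPM. After PBS, *Gjb2* and *Gjc1*, *Gjc1* and *Panx2*, and *Panx2* and *Gja4* overlapped in their libraries and could not be ordered. After DT, every library of *Gjb2* was above every library of *Gjc1*. *Panx1* was at 2.74 and 2.80 TPM, below every library of *Gja4*. *Gja5* was the lowest of the 8 genes, at 0.581 and 0.560 TPM. The plot of TPM by library shows this order spanning more than 3 decades.

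**Figure D1:**
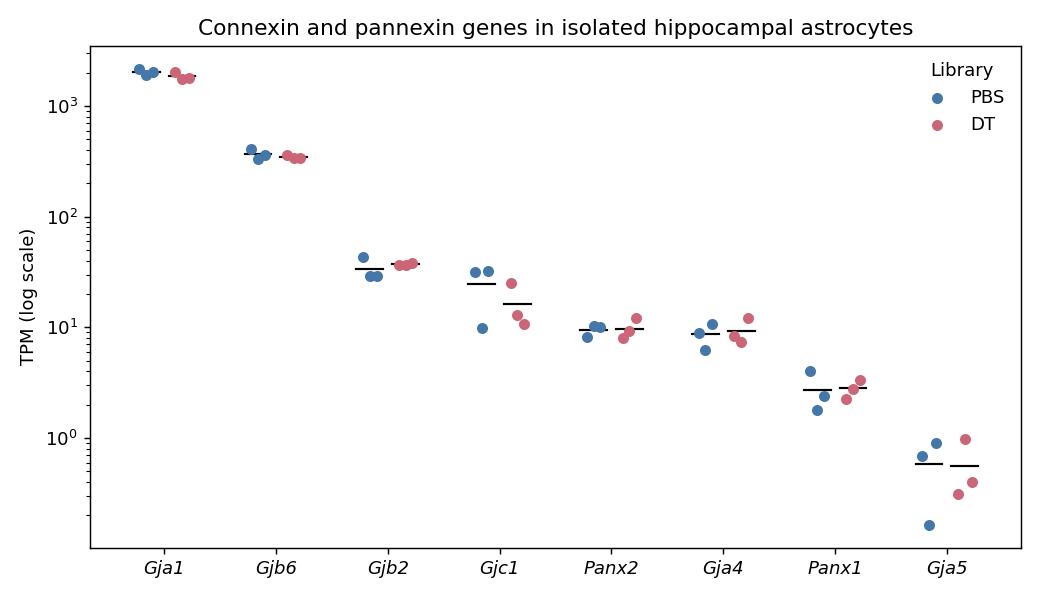
TPM on a log axis of the 8 connexin and pannexin genes in each of 3 PBS (blue) and 3 DT (red) libraries, with the mean of a group as a black line. *Gja1* lies at 1756 to 2171 TPM, *Gjb6* at 329 to 407 TPM, and *Gja5* under 1 TPM in every library, and the groups overlap for each gene.

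Of the summed TPM of all 23 connexin and pannexin genes looked up, *Gja1* made up 81.6% ± 0.916 (SD, n = 3) after PBS and 81.2% ± 0.560 (SD, n = 3) after DT. *Gjb6* made up 14.7% ± 0.431 and 15.1% ± 0.533. *Gja1*, *Gjb6* and *Gjb2* together reached 97.3% to 98.1% in the PBS libraries and 97.8% to 98.1% in the DT libraries. The share of *Gja1* thus differed between the groups by less than the spread between libraries. The sum was 2304 to 2688 TPM after PBS and 2173 to 2500 TPM after DT.

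The comparison of the DT with the PBS group asked whether RNA of these channel genes differed once microglia had been ablated. None of the 8 genes passed the threshold, an adjusted p-value under 0.05 from limma on log2(CPM + 0.1) with Benjamini-Hochberg adjustment over the 15137 genes that reached 0.5 CPM on average. At an unadjusted limma p-value under 0.05 the count was also 0, where 10.4% of all genes tested lay. At an adjusted p-value under 0.05 it was 0 with the quasi-likelihood and exact tests of edgeR and with DESeq2. Among all genes tested, 0.713% passed the threshold, 0.555% as higher and 0.159% as lower after DT. Of the 8 genes, 4 were at a higher and 4 at a lower mean, with a median log2 fold change of 0.0099 beside -0.0052 over all genes tested. The groups overlapped for each of the 8 genes, while 16.3% of all genes tested had groups that did not overlap. An exact permutation test of 3 against 3 libraries cannot give a p-value under 0.1, and for these genes its values in TPM were from 0.3 to 1. All 8 genes passed the filter on low values.

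*Gja1* was at 2344, 1984 and 2129 CPM in the PBS libraries and at 2199, 1815 and 1886 CPM in the DT libraries. The DT mean was the lower, and only 1 DT library lay within the PBS range, with the others below it. On the log2 scale the DT group differed by -0.13 with an SE of 0.09 (limma adjusted p = 0.676), and the 95% confidence interval ran from -0.35 to 0.08. It was -0.07 without PBS replicate 1, -0.21 without DT replicate 1 and -0.08 without DT replicate 2. In linear terms the interval from all libraries reached from 21.4% lower to 5.94% higher after DT. With 43240 to 65801 reads per library, counting error was small beside the spread between libraries.

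*Gjb6* was at 299.6, 234 and 261 CPM after PBS and at 266, 239 and 241 CPM after DT, so that every DT library lay within the range of the PBS libraries. The log2 fold change was -0.08 with an SE of 0.09 and a 95% confidence interval of -0.30 to 0.13 (limma adjusted p = 0.804). Without PBS replicate 1 its direction turned, to 0.0089. *Gjb2*, the third connexin found in astrocytes and also a connexin of meningeal cells, was at 36.0, 23.5 and 23.7 CPM after PBS and at 30.7, 29.2 and 30.7 CPM after DT. PBS replicate 1 was the highest of the 6 libraries for *Gjb2* and the other PBS libraries were the lowest. Its log2 fold change was 0.15 with an SE of 0.16 and a 95% confidence interval of -0.21 to 0.51 (limma adjusted p = 0.787). Without PBS replicate 1 it was 0.35 (limma adjusted p = 0.261), and leaving out single libraries gave values from 0.0464 to 0.354. The markers of meningeal fibroblasts, among them *Pdgfra*, which oligodendrocyte precursors also express, and *Igf2*, summed to 199, 139 and 146 TPM in PBS replicates 1, 2 and 3 and to 133, 155 and 178 TPM in DT replicates 1, 2 and 3. PBS replicate 1 was thus the highest for both sum and *Gjb2*. DT replicate 1 was the lowest for the sum and above PBS replicates 2 and 3 for *Gjb2*. The named markers differed in order. *Pdgfra* was at 153, 105 and 135 CPM after PBS and at 86.4, 83.9 and 99.6 CPM after DT. *Igf2* was at 72.2, 57.6 and 28.9 CPM after PBS and at 64.2, 67.9 and 80.3 CPM after DT. The lowest place of DT replicate 1 thus held for the sum and not for each marker. The part of meningeal cells in the *Gjb2* level was not tested.

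**Figure D2:**
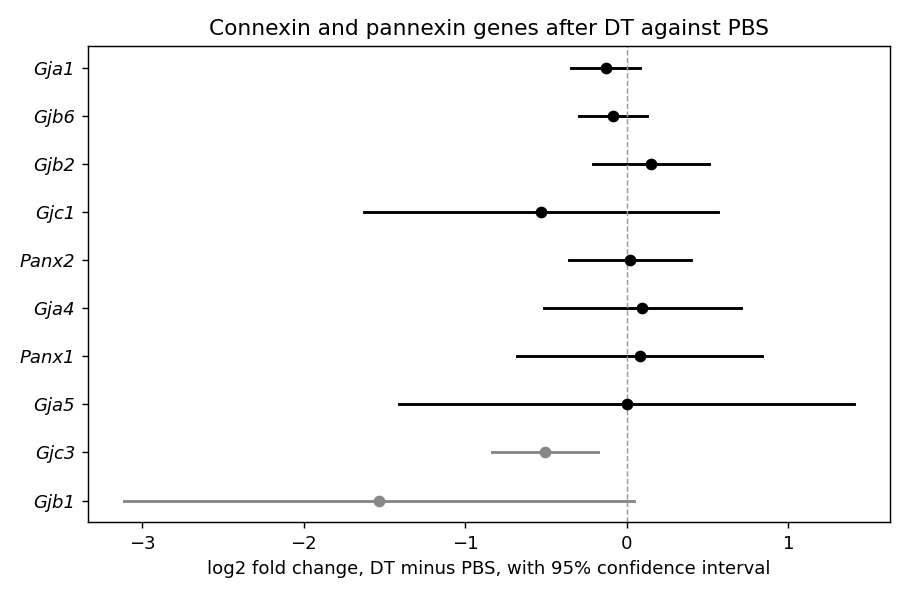
Log2 fold change of DT against PBS from limma, with its 95% confidence interval as a line, for the 8 genes (black) and for *Gjc3* and *Gjb1* (gray). The intervals of the 8 genes include 0, from the narrowest, *Gjb6* (-0.30 to 0.13), to the widest, *Gja5* (-1.41 to 1.41), and that of *Gjc3* lies under 0 without passing the adjusted threshold.

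*Gja1* and *Gjb6* varied alike over the libraries. On the scale of log2(CPM + 0.1), with each gene centred on its mean, they differed by a root mean square of 0.0546 over the 6 libraries, and 0.443% of the genes tested came as close to *Gja1*. For *Gja1* and *Gjb2* this difference was 0.212, and 55.9% of genes were as close. PBS replicate 1 and DT replicate 1 had the highest *Gja1* and *Gjb6* of their groups. The same libraries had the lowest TMM factors, 0.974 and 0.982, and the highest summed astrocyte markers of their groups, 27093 and 31679 TPM, and the part of either in these levels was not tested.

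The genes most like *Gja1* by this measure were *Selenbp1* (root mean square difference 0.0258), *Tmed3* (0.0295) and *Cd47* (0.0323). For *Gjb6* they were *Pcdhb14* (0.0249), *Zfp395* (0.0251) and *Glmp* (0.0286). Those nearest to *Gjb2* were *Tmem219* (0.0539), *Pom121* (0.0640) and *Acss3* (0.0697). Each list rests on 6 libraries, and none of the 9 genes passed the threshold between the groups.

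**Figure D3:**
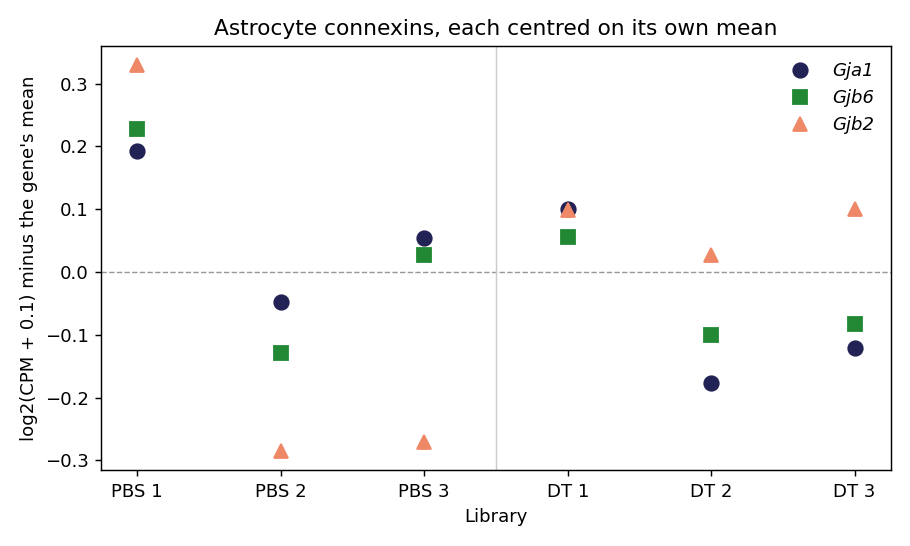
Log2(CPM + 0.1) of *Gja1*, *Gjb6* and *Gjb2* in each library, with each gene centred on its mean over the 6 libraries and a vertical line between the PBS and DT groups. *Gja1* and *Gjb6* lie near each other in every library, and *Gjb2* lies below them in PBS replicates 2 and 3 and above them in DT replicates 2 and 3.

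*Gjc1* encodes Cx45, known from vascular smooth muscle, pericytes and neurons. It was at 22.1, 6.72 and 22.4 CPM in PBS replicates 1, 2 and 3 and at 17.4, 8.71 and 7.24 CPM in DT replicates 1, 2 and 3. The libraries thus lay at a level of 17.4 CPM or more or at 8.71 CPM or less, and both levels occurred in both groups. Counting error does not span this gap, since the exact 95% binomial interval was 15.7 to 19.2 CPM in DT replicate 1 and 7.70 to 9.82 CPM in DT replicate 2. Such intervals cover counting error only, and they take recovered reads as independent, while the study sequenced fragments from both ends. The log2 fold change was -0.53 with an SE of 0.48 and a 95% confidence interval of -1.63 to 0.57 (limma adjusted p = 0.756). Single libraries moved it by over 1.5 times without changing the call, to -1.10 without PBS replicate 2, to -0.25 without PBS replicate 1, to -0.24 without PBS replicate 3, to -0.91 without DT replicate 1 and to -0.28 without DT replicate 3.

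The spread of *Gjc1* within the groups was an SD of 0.84 on the log2 scale, beside a median of 0.15 over the 7643 genes with a mean CPM of 5 to 50, of which 49 had a spread at least as large, *Gjc1* included. The markers of mural cells, among them *Vtn* and *Pdgfrb*, summed to 1264, 910 and 1390 TPM in PBS replicates 1, 2 and 3 and to 1080, 1201 and 1496 TPM in DT replicates 1, 2 and 3. In the PBS group the library with low *Gjc1* was also the lowest for the markers, whereas in the DT group the library with high *Gjc1* was the lowest for them. The part of mural cells in the *Gjc1* level was not tested. The genes nearest to *Gjc1*, sought after its values had been seen since it lay under the level set for this search, were *Oacyl*, *Gm1966* and *Nhej1* (root mean square differences 0.198, 0.216 and 0.278). *Oacyl* was at 0.921, 1.15 and 1.09 CPM in the libraries with high *Gjc1* and at 0.262 to 0.422 CPM in the others.

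**Figure D4:**
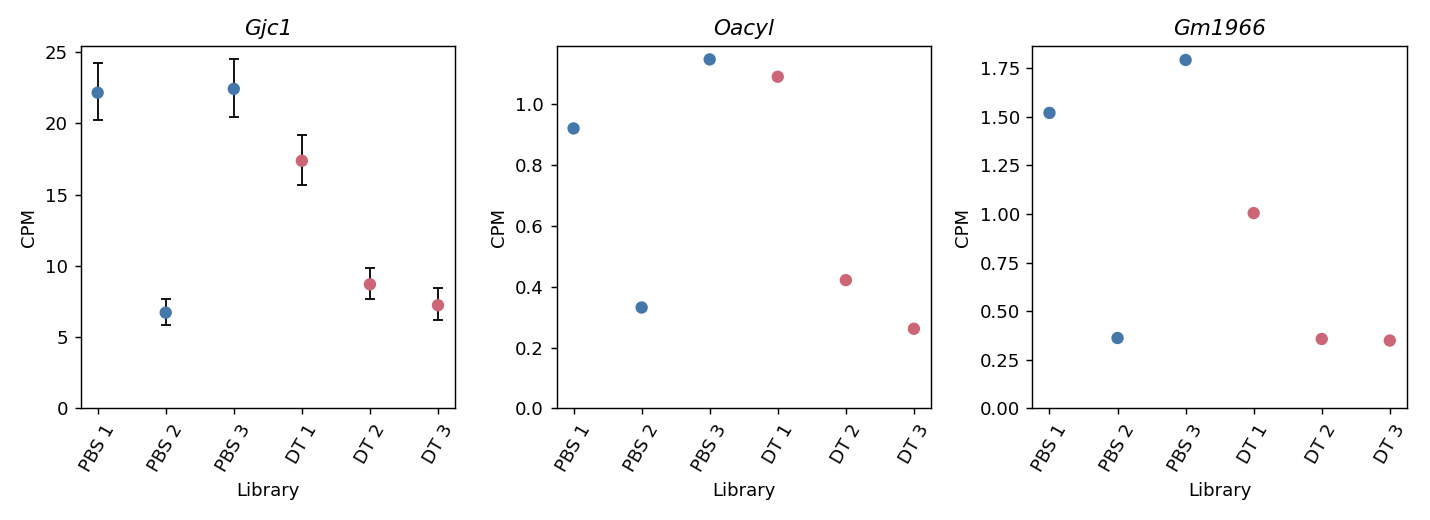
CPM of *Gjc1* and of the genes nearest to it by profile, *Oacyl* and *Gm1966*, in each PBS (blue) and DT (red) library, with exact 95% binomial intervals for *Gjc1*. PBS replicates 1 and 3 and DT replicate 1 lie above the other 3 libraries in all panels, with *Gjc1* at 17.4 CPM or more against 8.71 CPM or less.

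Connexins of the vascular wall were read at low levels. *Gja4*, which encodes Cx37 of arterial endothelium, was at 5.25, 3.497 and 6.25 CPM after PBS and at 4.89, 4.13 and 6.98 CPM after DT, from 112 to 160 reads per library. Replicate 2 was the lowest and replicate 3 the highest in either group. Its log2 fold change was 0.10 with an SE of 0.27 and a 95% confidence interval of -0.51 to 0.71 (limma adjusted p = 0.937), and its direction turned without PBS replicate 2 (-0.14) and without DT replicate 3 (-0.11).

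*Gja5*, which encodes Cx40, also of arterial endothelium, had 17, 6 and 22 reads in the PBS libraries and 8, 32 and 10 reads in the DT libraries, or 0.181 to 1.01 CPM and 0.349 to 1.04 CPM. Low and high libraries were found in both groups. The log2 fold change was -0.0023 with an SE of 0.62 (limma adjusted p = 0.999), and its 95% confidence interval spanned 0.376 to 2.65 times the PBS level. Its direction turned without PBS replicate 1 (0.22), PBS replicate 3 (0.38), DT replicate 1 (0.26) or DT replicate 3 (0.14). Endothelial markers, among them *Flt1* and *Slco1a4*, were lower on average after DT in 10 of 10 cases with a median log2 fold change of -0.39, and 0 passed the threshold. Without PBS replicate 3, the library with the highest sum, the median was -0.18. They summed to 742 to 1183 TPM after PBS and 629 to 756 TPM after DT. Among the 6 arterial markers, which include *Hey1* and *Sema3g*, 3 were at a higher and 3 at a lower mean. The part of these cells in the levels of *Gja4* and *Gja5* was not tested.

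Of the pannexins, *Panx2*, found mainly in neurons, was at 9.62, 11.7 and 11.6 CPM after PBS and at 9.47, 10.5 and 13.8 CPM after DT. The lowest and the highest library were both DT libraries. The log2 fold change was 0.02 with an SE of 0.17 and a 95% confidence interval of -0.36 to 0.40 (limma adjusted p = 0.976). Without PBS replicate 1 it was -0.07 and without DT replicate 3 it was -0.13. Neuronal markers, among them *Camk2a* and *Snap25*, summed to 492, 623 and 658 TPM after PBS and to 405, 671 and 791 TPM after DT. DT replicate 1 was thus the lowest and DT replicate 3 the highest library for both the markers and *Panx2*, and the part of neuronal RNA was not tested.

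*Panx1*, the widely expressed channel for ATP release, was at 2.95, 1.27 and 1.70 CPM after PBS and at 1.66, 1.95 and 2.36 CPM after DT, with 37 to 64 reads per library. All DT libraries lay within the PBS range. Its log2 fold change was 0.08 with an SE of 0.33 and a 95% confidence interval of -0.68 to 0.84 (limma adjusted p = 0.961). Without PBS replicate 1 the value was 0.40, and it turned to -0.18 without PBS replicate 2 and to -0.04 without DT replicate 3.

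Of the other 15 family members, 5 had no read in any library, among them *Gja3*, *Gjb5*, *Gjd4* and *Panx3*. A count of 0 allows up to 3 reads, or 0.0904 to 0.138 CPM depending on the library. Of the 3 that passed the filter, *Gjc3* and *Gjb1* are connexins of oligodendrocytes, the myelinating glia to which astrocytes are coupled, and 0 of the 3 passed the threshold with limma, edgeR or DESeq2. *Gjc3* (Cx29) was at 11.8, 11.1 and 9.88 CPM after PBS and at 7.07, 7.08 and 8.81 CPM after DT. Every DT library lay under every PBS library, and groups did not overlap for 16.3% of all genes tested. For *Gjc3* the log2 fold change was -0.51 with an SE of 0.14 and a 95% confidence interval of -0.84 to -0.18. It did not pass the threshold (limma adjusted p = 0.257, with an unadjusted p-value of 0.00687).

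*Gjb1* (Cx32) was at 0.599, 1.11 and 0.643 CPM after PBS and at 0.349, 0 and 0.480 CPM after DT. Its groups also did not overlap, as was so for 16.3% of all genes tested. The log2 fold change was -1.53 with an SE of 0.69 (limma adjusted p = 0.492), and with a pseudocount of 1 it was -0.49. Without DT replicate 2, which had 0 reads, it was -0.75, and single libraries left out gave a range of -2.02 to -0.75. Oligodendrocyte markers, among them *Cnp*, were lower on average after DT in 8 of 10 cases, with a median log2 fold change of -0.32 and 0 past the threshold. They summed to 519 to 627 TPM after PBS and 424 to 518 TPM after DT, and their part in the levels of *Gjc3* and *Gjb1* was not tested.

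Genes that work with connexins were set beside them. A list of 19 partners held scaffolds such as *Tjp1*, which encodes ZO-1, kinases that phosphorylate Cx43 and factors of its turnover such as *Nedd4*. All were tested, 10 were at a higher and 9 at a lower mean, and 0 passed the threshold. An unadjusted limma p-value under 0.05 was found for 2 of the 19, beside 10.4% of all genes tested. The quasi-likelihood and exact tests of edgeR also called 0 of the 19, and DESeq2 called 1. The median log2 fold change was 0.0011. *Prkca*, a protein kinase C that acts on Cx43, was at 114, 108 and 109.5 CPM after PBS. After DT it was at 129, 127 and 134 CPM, with no overlap, as was so for 16.3% of all genes tested. Its log2 fold change was 0.24 with an SE of 0.06 (limma adjusted p = 0.169), and with DESeq2 it was the partner that passed the threshold (DESeq2 adjusted p = 0.0418, the lowest of the alternatives, the highest being 0.432). *Nov*, which encodes a secreted protein that binds Cx43, differed by 0.63 on the log2 scale (limma adjusted p = 0.393). Lower means with the smallest p-values were those of *Src*, with -0.10, and *Mapk7*, with -0.23. *Src* was at -0.06 without DT replicate 2, and *Mapk7* was at -0.15 without PBS replicate 1, -0.10 without DT replicate 1 and -0.38 without DT replicate 2.

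Other channels and transporters through which cells can release ATP or anions gave 8 tested genes of 11 in the table. Of these, 5 were at a higher and 3 at a lower mean, and 0 passed the threshold with limma, edgeR or DESeq2. An unadjusted limma p-value under 0.05 was found for 1 of the 8, beside 10.4% of all genes tested. The median log2 fold change of the 8 genes was 0.08. *Lrrc8a*, the obligate subunit of volume-regulated anion channels, was at 294, 227 and 252 CPM after PBS and at 310, 278 and 295 CPM after DT (log2 fold change 0.20, SE 0.09, limma adjusted p = 0.521). It was 0.30 without PBS replicate 1 and 0.11 without PBS replicate 2. Its relative *Lrrc8b* differed by 0.33 on the log2 scale (limma adjusted p = 0.470) and by 0.19 without DT replicate 3. *Calhm2*, a large-pore channel gene, and *Lrrc8c* differed by -0.26 and -0.14, and the direction of *Lrrc8c* turned without PBS replicate 3 (0.0074) or DT replicate 2 (0.0269).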

How the data were processed

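RNA of 6 libraries, 3 PBS and 3 DT, was analysed. According to the study's methods and the processing notes, the authors trimmed reads with Trim Galore 0.5.0, mapped them to mm10 with HISAT2 2.1.0, removed rDNA reads with bedtools 2.25.0, quantified genes with StringTie 1.3.5 and compared groups with edgeR 3.24.3. The authors deposited a TPM table and a CPM table, whose values are a signal per gene relative to library sizes scaled by TMM, with columns summing to 980428 to 1026170. Columns of p-values, q-values and fold changes hold the authors' comparison and were not used. 100% of values above 0 were whole multiples of 1 read within 0.05 read, so reads could be recovered.

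Genes that reached 0.5 CPM on average entered a two-sided limma 3.58.1 fit (R 4.3.3) of log2(CPM + 0.1) in which the prior variance followed the mean, with Benjamini-Hochberg adjustment over all genes tested. The design had assumed plain CPM. The labels do not state that libraries with the same number were paired. That replicates are 3 independent experiments is stated. The p-values of the main fit thus measure the spread between libraries, in which pools of 2 mice and experiments cannot be told apart. Alternatives were edgeR 4.0.16 and DESeq2 1.42.0 on recovered reads and the settings given in the closing section. The code was tested on simulated data.

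The genes, lists and tests were chosen with earlier results of these data known. Named are the 8 genes, family members past the filter, of the partner and large-pore lists the genes past the threshold or otherwise the 2 smallest p-values in each direction, the 2 markers of a cell type with the highest mean CPM after PBS, and the 3 genes nearest to each of the 8 genes that averaged 20 CPM or more. *Gfap*, *Siglech*, *Tjp1*, *Nedd4*, the neighbors of *Gjc1*, *Gja6* and the genes nearest to *Gjc1* were named after values had been seen. Coordinates are those of GENCODE M21. Some genes that this rule names are not reported here.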

Additional observations from a re-analysis of the deposited data

How the results depend on the processing

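Over 18 alternatives, 0 of the 8 genes passed the threshold in any, and *Gja1*, *Gjb2* and *Gjc1* kept their direction in all of them. *Gja5* and *Panx1* could not be fitted at a mean CPM of at least 2, having been removed by that filter. For the values that follow, the cause was not tested. *Gja5*, at -0.0023, was 0.0307 with TPM and 0.0131 with library totals, and *Panx2* was -0.0217 with quantile normalization. Leaving out 1 library at a time, log2 fold changes ranged from -0.215 to -0.0686 for *Gja1*, -0.170 to 0.0089 for *Gjb6*, 0.0464 to 0.354 for *Gjb2*, -1.10 to -0.242 for *Gjc1*, -0.135 to 0.274 for *Gja4*, -0.608 to 0.383 for *Gja5*, -0.179 to 0.400 for *Panx1* and -0.134 to 0.136 for *Panx2*. The share of *Gja1* was 86.3% after PBS and 86.0% after DT in CPM, which is not per length, and 81.1% to 82.0% and 80.9% to 81.4% without 1 library.

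Over all genes, 84 were higher and 24 lower after DT. Without the variance trend these were 35 and 11, with edgeR's exact test 189 and 72, and with DESeq2 227 and 98. Without 1 library they ranged from 39 to 72 and from 9 to 20. *Lrrc8c* was 0.0074 without PBS replicate 3 and 0.0269 without DT replicate 2, in a range from -0.257. *Siglech* lost its call in 2 alternatives, without PBS replicate 2 or 3. DESeq2 called 1 partner or large-pore gene where limma called 0.

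PBS and DT libraries 1, 2 and 3 deviated from their group means with pairwise correlations of 0.115, 0.0105 and 0.118. Libraries 1 and 3 correlated best with their own number. PBS replicate 2 was at 0.0107 with DT replicate 1, and DT replicate 2 was at 0.0115 with PBS replicate 3. Pairing was thus not shown for all libraries. A replicate block gave 79 higher and 30 lower genes over all, *Gja1* was at -0.13 (limma adjusted p = 0.268), and no call among the 8 genes changed. Of 234 medians of 13 gene lists, 6 moved by more than 1 SD and 17 changed sign. Depth limits *Gja5*, with 6 to 32 reads per library, most.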

Other observations

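*Gjc1* lies 67635 bases from *Gfap* on chromosome 11. Of the 10 other tested genes within 200000 bases of *Gjc1*, *Gfap* alone passed the threshold between the groups, and *Fam187a* alone had a larger spread within the groups than *Gjc1* (SD 1.51 on the log2 scale, at 0.567 to 9.07 CPM). The nearest genes, *Higd1b*, *Eftud2* and *Adam11*, had SDs of 0.33, 0.11 and 0.11.

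*Gja6*, the relative of *Gja1* that was under the filter, had 10, 1 and 7 reads in PBS replicates 1, 2 and 3 and 8, 0 and 0 reads in DT replicates 1, 2 and 3. The 3 libraries with 7 or more reads are those in which *Gjc1* was high.

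Genes of cell types that the libraries could also hold were looked up. Choroid plexus markers, among them *Ttr* and *Folr1*, were at a higher mean after DT in 10 of 10 cases, with 0 past the threshold, and summed to 112 to 2052 TPM after PBS and 1271 to 3466 TPM after DT. Ependymal markers, among them *Foxj1* and *Rarres2*, were higher on average in 8 of 8 cases with 0 past the threshold. Of 7 tested genes of border-associated macrophages, 3 passed the threshold as higher, among them *Mrc1* with a log2 fold change of 1.49 and *F13a1* with 1.38. *Csf1r*, a microglia marker, had a log2 fold change of -1.74. For mural cells, 6 of 10 markers were at a higher mean and 0 passed the threshold. Markers of meningeal fibroblasts and of neurons had medians of -0.0533 and -0.0072, with 0 past the threshold. *Slc1a3*, a glutamate transporter of astrocytes, was at 10654 CPM after PBS and 9826 CPM after DT.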
